A study of Arabidopsis thaliana with 12 samples.

Results

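Photosystem I hands electrons to ferredoxin. The 9 genes described here encode ferredoxins, the enzyme that takes electrons from them, PGR5 of the cyclic route and a protein named PGR5-like. They were taken by AGI identifier and not by a cutoff on measured values, though earlier results of these data were known. The genes are FD1, FD2, FD3, FDC1, FDC2, FNR1, FNR2, PGR5 and AT5G59400. They are 9 of the 32678 gene identifiers in the tables, and all 9 were among the 19148 genes that passed the filter on low counts and were tested. RNA was sequenced from Arabidopsis thaliana seedlings in 4 groups of 3 libraries: wild type (Col in the titles) and clf, each on iron sufficient or iron deficient medium. The clf plants carry a mutation in CURLY LEAF (CLF), a gene for a histone-methylating enzyme of the Polycomb group. All 4 groups had 12 days on B5 medium and then 3 days on the iron media, in days of 16 h light and 8 h dark at 22 °C. No source used here gives the iron concentrations, the clf allele or whether plants were pooled. Nor does any say that replicates were separate cultures, so the p-values speak of the spread between these libraries, which may be technical.

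Ferredoxins are small soluble proteins of the chloroplast stroma that carry electrons on an iron-sulfur cluster held by cysteines. Ferredoxin-NADP reductase (FNR) passes those electrons to NADP for carbon fixation, and other enzymes draw on the same pool for nitrogen and sulfur assimilation, thioredoxin reduction and pigment synthesis. In cyclic flow, electrons return from ferredoxin to the plastoquinone pool through a route that needs PGR5 and its partner PGRL1, or through the chloroplast NDH complex. FD2 is known as the main leaf ferredoxin and FD1 as a minor leaf form, while FD3 belongs to the type found in roots and other non-photosynthetic tissue. FDC1 and FDC2 are ferredoxins with a longer C-terminus. FNR1 and FNR2 are the leaf forms of the reductase, and FNR1 is needed for FNR2 to bind the thylakoid membrane. AT5G59400 carries the RefSeq product name "PGR5-like A protein", and no role is given to it here.

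The cysteine codons are shown because they encode the part of a ferredoxin that holds the iron, and because they show how near FD1 and FD2 are to each other. In each of the 5 ferredoxins there was exactly 1 match to a cysteine, 4 residues, a cysteine, 2 residues and a cysteine in the RefSeq TAIR10.1 coding sequence. The matching codons are printed 5′ to 3′ with the cysteine codons of the motif in capitals. In FDC2 the lower-case codon just before the second of them also encodes a cysteine.
FD1: TGCcgtgccggttctTGCtcaagtTGC
FD2: TGCcgtgctggttctTGTtcgagcTGT
FD3: TGCagagccggtgcgTGTtctactTGC
FDC1: TGCaatctcggtgttTGTatgactTGT
FDC2: TGCaggcatggttgtTGTactagtTGT
The next cysteine came after 29 codons in FD1, FD2 and FD3, after 28 in FDC1 and after 33 in FDC2. The sequence ran on for 49 codons past the motif in FD1, FD2 and FD3, for 57 in FDC1 and for 92 in FDC2. The FD1 and FD2 coding sequences both had 447 bases and were identical at 356 of them (79.6%), and their longest shared run in the transcripts was 23 bases. FNR1 and FNR2 were identical at 816 of 1083 aligned coding bases (75.3%), with a longest shared run of 17 bases.

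In TAIR10.1, FD1 (AT1G10960) lies at chr1:3664187-3665040 on the plus strand and FD2 (AT1G60950) at chr1:22444307-22445291 on the plus strand, each as 1 exon. FD3 (AT2G27510) lies at chr2:11757955-11759588 on the minus strand, FDC1 (AT4G14890) at chr4:8520819-8521506 on the plus strand and FDC2 (AT1G32550) at chr1:11771621-11774294 on the minus strand. FNR1 (AT5G66190) lies at chr5:26450964-26453199 on the minus strand and FNR2 (AT1G20020) at chr1:6942625-6945091 on the plus strand. PGR5 (AT2G05620) lies at chr2:2080647-2081859 on the minus strand and AT5G59400 at chr5:23957737-23959707 on the plus strand. FDC1 lies wholly inside AT4G14900, which is on the other strand, and its 688 bases are shared. FD1 shares 78 bases with its neighbour AT1G10950, FNR1 191 with AT5G66180 and AT5G59400 135 with AT5G59410. The strand setting of the counting is not given, so the values of FDC1 in particular are uncertain by what its antisense partner may add.

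The 250 bases upstream of the annotated start are shown for FD1 and FD2, whose means moved in opposite directions on deficient iron, though FD1 was not called. They are also shown for AT5G59400, whose pattern was near that of FD2. They are RefSeq TAIR10.1, on the strand of each gene. The FD1 stretch is chr1:3663937-3664186, that of FD2 chr1:22444057-22444306 and that of AT5G59400 chr5:23957487-23957736.
FD1: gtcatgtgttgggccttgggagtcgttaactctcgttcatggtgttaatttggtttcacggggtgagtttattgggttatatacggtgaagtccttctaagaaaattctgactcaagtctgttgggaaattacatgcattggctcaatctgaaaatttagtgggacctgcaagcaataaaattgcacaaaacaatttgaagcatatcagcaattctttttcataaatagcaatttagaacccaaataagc
FD2: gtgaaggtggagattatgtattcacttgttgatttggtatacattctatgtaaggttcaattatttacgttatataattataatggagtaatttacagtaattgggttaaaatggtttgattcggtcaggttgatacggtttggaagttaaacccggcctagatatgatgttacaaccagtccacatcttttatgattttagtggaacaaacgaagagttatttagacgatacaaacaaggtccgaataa
AT5G59400: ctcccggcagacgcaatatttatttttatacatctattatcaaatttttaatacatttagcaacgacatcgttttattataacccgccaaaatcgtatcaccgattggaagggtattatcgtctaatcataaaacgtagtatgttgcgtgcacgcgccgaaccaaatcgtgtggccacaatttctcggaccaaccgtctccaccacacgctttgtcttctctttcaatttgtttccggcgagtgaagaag
In a window from 250 bases before to 50 bases after the start, 4 motifs were searched on both strands: the G-box CACGTG, the GATA motif GATAAG, the evening element AAAATATCT and the motif CACGAG. The windows of FD1 and FD2 held none of the 4. GATAAG was found in 3 of the 9 windows, those of FDC1, FNR1 and AT5G59400 (in AT5G59400 40 bases after the start, past the stretch shown), against 14.7% of 27438 promoters. CACGTG was found in 1 of 9, at 110 and 91 bases before the start of FDC2, against 7.68% of promoters, and AAAATATCT (2.82%) and CACGAG (5.18%) in none. A match describes the letters and not a bound site.

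Counts summed to between 16092041 and 29400813 per library, and all 6 libraries on deficient iron were deeper than all 6 on sufficient iron, so depth and iron level cannot be told apart. CLF had a log2 fold change in clf of -1.72 on sufficient and -1.86 on deficient iron (edgeR adjusted p 0.00238 and 0.00128). Most labels name the shoot as the tissue, but 1 tissue label and the extraction text name the root. The 10 leaf markers summed to 54310 to 108800 CPM (counts relative to library size) across the 12 libraries and the 18 root markers to 327 to 746 CPM. Without PYK10 and SCR the root markers summed to 2.01 to 16.8 CPM, and SMB, PLT1 and PLT2 were at 0 in all 3 libraries of iron-deficient clf. Each group held 1 library that stands apart: replicate 3 in both clf groups and in iron-sufficient wild type, and replicate 2 in iron-deficient wild type. In those 4 libraries the evening clock gene TOC1 was at 30.2 to 59.6 CPM, against 9.44 to 13.0 CPM in the other 8. Values of genes below are CPM on TMM-scaled library sizes unless called FPKM (fragments per kilobase of gene and per unit of library size), which is the deposited unit per length and the only one used to compare levels between genes.

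By FPKM either FD1 or FD2 had the highest mean of the 9 genes in each group, and which of them led differed between the iron media. In iron-sufficient wild type FD2 stood at 2371 ± 198 FPKM (mean ± SD, n = 3 here and below), followed by FD1 at 490 ± 117 and FNR1 at 453 ± 8.58, whose ranges overlapped. FNR2 at 222 ± 74.6, PGR5 at 199 ± 50.2 and FDC1 at 147 ± 19.5 FPKM came next, again with overlapping neighbours. FDC2 at 43.6 ± 1.48, FD3 at 19.5 ± 2.05 and AT5G59400 at 5.31 ± 0.501 FPKM were lowest, each separate from the next. In iron-deficient wild type FD1 came first at 968 ± 138 FPKM and FD2 second at 556 ± 78.3, with no overlap. The other 7 genes kept that order apart from PGR5 (264 ± 44.9) and FNR2 (229 ± 28.3), which overlapped, and AT5G59400 was at 0.265 ± 0.158 FPKM. In iron-sufficient clf FD2 led at 2115 ± 250 FPKM and FD1 followed at 765 ± 163, while on deficient iron FD1 (1156 ± 289) and FD2 (901 ± 223) overlapped.

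**Figure D1:**
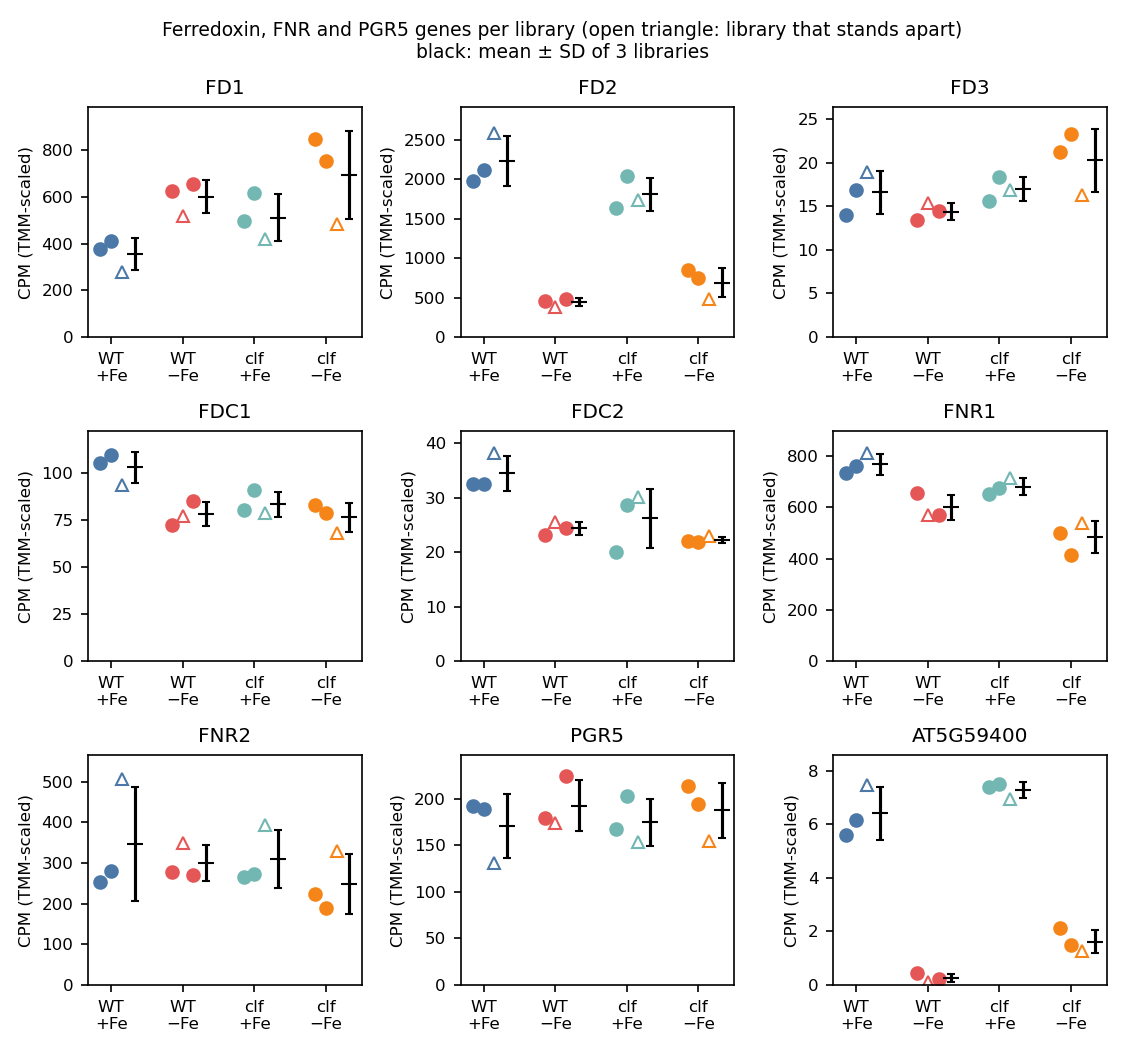
CPM on TMM-scaled library sizes (y axis, from 0) of each of the 9 genes in the 4 groups (x axis, wild type and clf with or without iron), 1 point per library, with the library that stands apart as an open triangle and the mean ± SD of 3 libraries in black. FD2 and AT5G59400 are lower in every library on deficient iron, and FNR2 is highest and PGR5 lowest in the open triangle of each group.

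In wild type, deficient set against sufficient iron asks how these genes respond in the shoot to 3 days with little iron. FD2 and AT5G59400 fell and none of the 9 rose, while FD1 was higher in all 3 deficient libraries without passing the test. Over all genes tested, 9.12% were called, 4.61% higher and 4.52% lower, at an edgeR adjusted p under 0.05. The median log2 fold change of the 9 genes was -0.36, beside 0.007 over all genes.

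FD2, the main leaf ferredoxin, was at 1979, 2116 and 2588 CPM on sufficient iron and at 457, 382 and 480 CPM on deficient iron. The groups lay far apart, and each deficient library held less than any sufficient one. FD2 was 5.07-fold lower, and the log2 fold change of -2.34 (SE 0.21) had an edgeR adjusted p of 8.96e-05.

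FD1, the minor leaf form, was at 378, 412 and 281 CPM on sufficient iron and at 627, 521 and 655 CPM on deficient iron. All 3 deficient libraries were above all 3 sufficient ones, in the direction opposite to FD2. The log2 fold change of 0.75 (SE 0.22) had an edgeR adjusted p of 0.0628. The lowest FD1 value of each group was that of the library that stands apart, and with a term for those 4 libraries the adjusted p was 0.000586. With that term 4115 of all genes were called in this comparison, against 1747 in the main fit. Of the 21 alternative fits described below, 7 called FD1, with adjusted p up to 0.17.

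FD3, the type known from roots, was at 14.0, 16.9 and 19.0 CPM and at 13.4, 15.4 and 14.4 CPM on sufficient and deficient iron, and the groups overlapped. The log2 fold change of -0.20 (SE 0.16) had an edgeR adjusted p of 0.47. FDC1 was at 105, 109 and 93.7 CPM on sufficient iron and at 72.5, 76.9 and 84.9 CPM on deficient iron, all lower. FDC2 was at 32.6, 32.5 and 38.2 CPM and at 23.1, 25.5 and 24.4 CPM, also all lower. Neither ferredoxin with the long C-terminus passed the test, with log2 fold changes of -0.40 (SE 0.11) and -0.50 (SE 0.14) at an edgeR adjusted p of 0.0537 each. With the term for the libraries that stand apart the adjusted p was 0.00918 for FDC1 and 0.0123 for FDC2, and DESeq2 gave 0.0155 and 0.0166. Only 4 of 21 alternatives called FDC1 and 5 called FDC2, with adjusted p up to 0.435 and 0.191.

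FNR1, which holds its partner at the membrane, was at 732, 760 and 812 CPM on sufficient iron and at 656, 571 and 571 CPM on deficient iron. The groups did not overlap, but the log2 fold change of -0.36 (SE 0.11) had an edgeR adjusted p of 0.0713. FNR1 was called lower in only 2 of 21 alternatives, over which the adjusted p reached 0.474. These 2 were the term for the libraries that stand apart (adjusted p 0.0215) and DESeq2 (adjusted p 0.0258). FNR2 was at 254, 279 and 507 CPM on sufficient iron and at 279, 351 and 270 CPM on deficient iron, with a log2 fold change of -0.21 (SE 0.29, edgeR adjusted p 0.717). The highest FNR2 value of each group was that of the library that stands apart, and without those 4 libraries the log2 fold change was 0.04.

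PGR5, a small stromal protein needed for cyclic flow, was at 192, 189 and 131 CPM on sufficient iron and at 179, 174 and 224 CPM on deficient iron. The groups overlapped (log2 fold change 0.18, SE 0.18, edgeR adjusted p 0.616). AT5G59400 had counts of 101, 91 and 107 on sufficient iron and of 12, 3 and 7 on deficient iron, or 5.58, 6.16 and 7.48 against 0.442, 0.123 and 0.241 CPM. Of the 9 genes it had the largest change, a log2 fold change of -4.53 (SE 0.36, edgeR adjusted p 4.95e-05), or 23.2-fold lower. So the gene called PGR5-like fell where PGR5 itself did not pass the test. In all, 6 of the 9 genes had groups that did not overlap, against 28.3% of all genes tested, and 6 had an unadjusted p under 0.05. The share of all genes at an unadjusted p under 0.05 was not counted, here or in the other comparisons.

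The 10 leaf markers summed to 96990 to 108800 CPM in iron-sufficient wild type and to 63850 to 67930 CPM on deficient iron, with 2 of 10 called lower, none higher and none at 0. Their part in the fall of FD2 and AT5G59400 was not tested. In bulk RNA, fewer cells of a type and less RNA per cell cannot be told apart.

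The same comparison in clf asks whether the response is seen in the mutant. FD2 and AT5G59400 fell here too, and no other of the 9 genes was called, where 1.52% of all genes tested were called, 0.752% higher and 0.768% lower. The median of the 9 log2 fold changes was -0.24, beside -0.02 over all genes. FD2 was at 1640, 2043 and 1734 CPM on sufficient iron and at 843, 743 and 482 CPM on deficient iron, with no overlap. It was 2.62-fold lower, and the log2 fold change of -1.39 (SE 0.20) had an edgeR adjusted p of 0.00735, which was 0.0547 when only the 2 clf groups were fitted. AT5G59400 had counts of 135, 129 and 135 on sufficient iron and of 47, 47 and 42 on deficient iron, or 7.38, 7.51 and 6.94 against 2.11, 1.48 and 1.28 CPM. The mutant thus kept counts well above those of the iron-deficient wild type while still losing most of them. AT5G59400 was 4.50-fold lower, and the log2 fold change of -2.17 (SE 0.31) had an edgeR adjusted p of 0.00704, which was 0.0501 without replicate 2 of iron-deficient clf.

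FD1 was at 496, 619 and 419 CPM in iron-sufficient clf and at 847, 753 and 483 CPM on deficient iron. The groups overlapped through replicate 3 on deficient iron, which stands apart, and the log2 fold change of 0.44 (SE 0.22) had an edgeR adjusted p of 0.402. With a term for the libraries that stand apart the adjusted p was 0.0345, but only 2 of 22 alternatives called FD1, with adjusted p up to 0.825. With that term 1741 of all genes were called, against 291 in the main fit. FNR1 was at 653, 675 and 716 CPM and at 498, 415 and 540 CPM, all lower on deficient iron, with a log2 fold change of -0.49 (SE 0.11, edgeR adjusted p 0.0603). That value was 0.00975 with the term for the libraries that stand apart, 0.0356 without replicate 3 of iron-deficient clf and 0.00359 with DESeq2. In all, 5 of 22 alternatives called FNR1, with adjusted p up to 0.205. With the replicate numbers as a block in the 3 groups whose numbers deviate together, which leaves out iron-deficient wild type, the adjusted p was 0.0164 for FNR1, and 1356 of all genes were called against 291. FD3 (0.26), FDC1 (-0.12), FDC2 (-0.24), FNR2 (-0.33) and PGR5 (0.10) had overlapping groups and an edgeR adjusted p from 0.49 to 0.882. Groups that did not overlap were seen for 3 of the 9 genes, against 20.9% of all genes tested. The leaf markers summed to 80340 to 88690 CPM in iron-sufficient clf and to 54310 to 66950 CPM on deficient iron, with 1 of 10 called lower and none at 0, and their part was not tested. The root markers summed to 418 to 592 CPM on sufficient iron and to 327 to 406 CPM on deficient iron, and without PYK10 and SCR to 6.22 to 16.8 CPM and to 2.01 to 6.85 CPM, which overlapped. Their median log2 fold change was -0.61. Of the 11 tested edgeR called 0, while 6 had an unadjusted p under 0.05, and with the term for the libraries that stand apart 4 were called lower and 1 higher. DESeq2 called 3 of 18 lower, and the part of the root markers in the results was not tested.

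**Figure D2:**
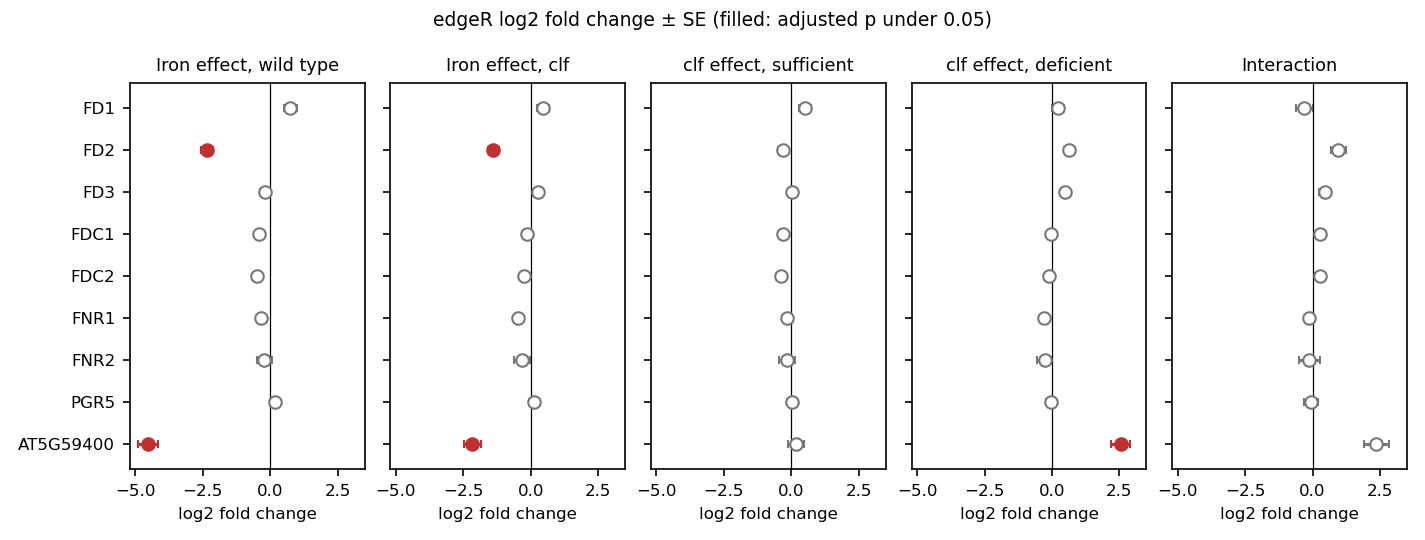
Log2 fold changes (x axis) of the 9 genes (y axis) in the 5 comparisons, 1 panel each, as edgeR estimates with bars of 1 SE and filled points at an adjusted p under 0.05. FD2 and AT5G59400 are the filled points on the left in both iron panels, and AT5G59400 at 2.55 is the only filled point of the clf effect on deficient iron.

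The share of FD2 in the summed FPKM of FD1 and FD2 compares both genes within each library, so that it does not use the library total. On sufficient iron FD2 held most of the summed FPKM, and on deficient iron FD1 did, in every library. In iron-deficient clf this order rests on the lengths behind the FPKM, 654 bases for FD1 and 833 for FD2. In wild type the FD2 share was 80.4%, 80.1% and 87.9% on sufficient iron and 36.4%, 36.5% and 36.5% on deficient iron. In clf it was 72.2%, 72.2% and 76.5% on sufficient iron and 43.9%, 43.7% and 43.9% on deficient iron. By FPKM FD2 was thus above FD1 in all 6 sufficient libraries and below it in all 6 deficient ones. The change was -46.3 percentage points in wild type and -29.8 in clf, with a mean of -38.1. The two-sided exact permutation test of iron labels within genotype gave p = 0.005, the smallest its 400 permutations allow, and 0.01 adjusted over the 2 shares tested. Within 1 genotype the exact p was 0.1, the smallest that 3 libraries against 3 allow, and whether the fall differs between the genotypes was not tested on this scale.

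Counts not corrected for length bear on the precision of these shares but not on the order of the genes. FD1 and FD2 had 18839 and 18751 counts, 23960 and 23643 counts, and 15853 and 15807 counts in the 3 libraries of iron-deficient clf. In iron-deficient wild type the ratio of FD1 to FD2 counts was 1.371, 1.364 and 1.366. In iron-deficient clf the 95% Wilson interval of the FD2 share of counts included 50% in all 3 libraries. The intervals were 49.38% to 50.39%, 49.22% to 50.12% and 49.38% to 50.48%. Counts were near equal there, so the higher FD1 share of FPKM in iron-deficient clf rests on the lengths given above. The ratios were near constant between libraries whose FD1 counts ranged from 12680 to 19016 in wild type and from 15853 to 23960 in clf. The SD of the FD2 share of counts was 0.0721 points in wild type and 0.138 points in iron-deficient clf, under the 0.272 to 0.333 and 0.229 to 0.281 points that counting error alone gives (binomial SD). On sufficient iron it was 3.69 points in wild type and 2.17 in clf, above the counting error of 0.147 to 0.214 points, and the library that stands apart had the highest share in both groups. Reads were counted without molecular identifiers, so these errors cover counting only.

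**Figure D3:**
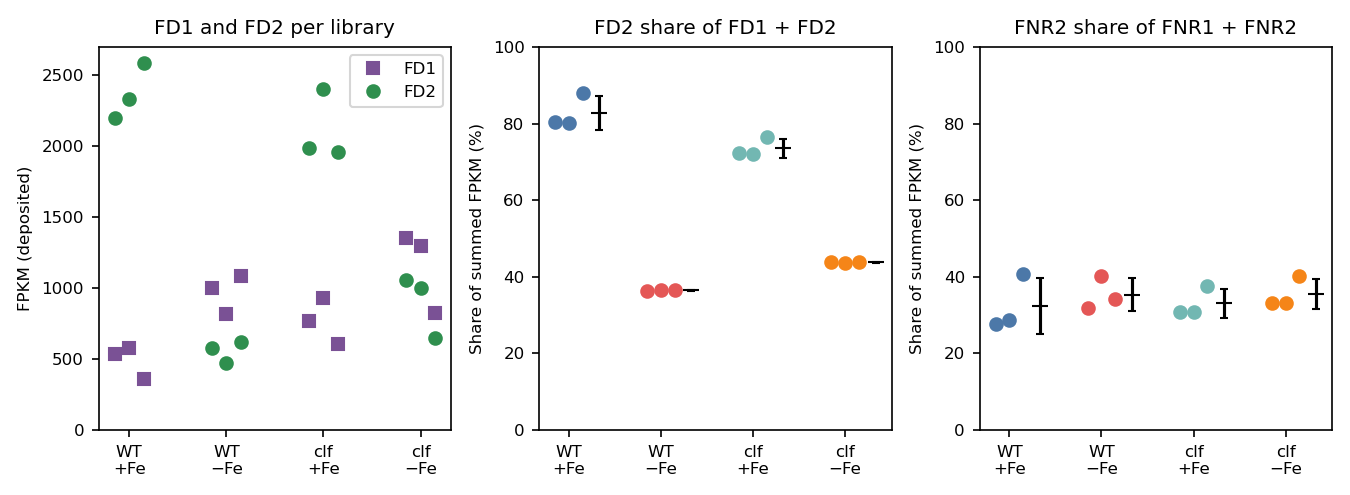
Left, deposited FPKM (y axis) of FD1 (squares) and FD2 (circles) in each library of the 4 groups (x axis); middle and right, the FD2 share of FD1 plus FD2 and the FNR2 share of FNR1 plus FNR2 in percent (y axis, 0 to 100), with mean ± SD of 3 libraries in black. The FD2 share is 72.2% or more in the 6 sufficient libraries and 43.9% or less in the 6 deficient ones, while the FNR2 share stays between 27.6% and 40.7%.

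Over the 5 ferredoxins together, FD2 made up 77.2% ± 4.64 of the summed FPKM in iron-sufficient wild type and 32.4% ± 0.431 on deficient iron. FD1 went from 16.0% ± 3.99 to 56.5% ± 0.891 and FDC1 from 4.80% ± 0.714 to 7.73% ± 0.828. In clf FD2 made up 69.1% ± 2.07 and 39.9% ± 0.713 and FD1 24.8% ± 2.39 and 51.1% ± 1.04. FD3 and FDC2 each made up at most 2.53% in any library. The summed FPKM of the 5 was 3071 ± 110 and 1711 ± 224 in wild type and 3068 ± 418 and 2255 ± 526 in clf. The ranges on the 2 media did not overlap in either genotype, at 2943 to 3135 and 1470 to 1912 FPKM in wild type and 2737 to 3537 and 1652 to 2611 FPKM in clf. FPKM has no TMM scaling, and on it the median of all genes was higher on deficient iron by 0.19 in wild type and by 0.12 in clf (log2, pseudocount 1).

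The FNR2 share of FNR1 plus FNR2 showed no such turn. It was 27.6%, 28.7% and 40.7% in iron-sufficient wild type and 31.8%, 40.2% and 34.1% on deficient iron. In clf it was 30.9%, 30.7% and 37.5% and then 33.1%, 33.3% and 40.1%. The highest value of each group was that of the library that stands apart, and the average change of 2.75 points had an exact permutation p of 0.325. Without those 4 libraries the change was 3.59 points, and each remaining deficient library was above the sufficient ones of its genotype. The exact permutation p was then 0.0556, the smallest that design allows, so a small rise of the FNR2 share is not excluded.

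The comparison of clf with wild type on sufficient iron asks what the mutation does where iron is at hand. None of the 9 genes passed the edgeR test, where 4.91% of all genes tested were called (3.59% higher and 1.32% lower), and DESeq2 called 0 as well, while 3 of the 9 had an unadjusted p under 0.05. These were FD1 at a log2 fold change of 0.52 (SE 0.22, edgeR adjusted p 0.244), FDC1 at -0.31 (SE 0.11, adjusted p 0.171) and FDC2 at -0.39 (SE 0.14, adjusted p 0.164). The groups did not overlap for these 3 and for FNR1 (-0.17), 4 of 9 against 23.8% of all genes tested. With a term for the libraries that stand apart FD1, FDC1 and FDC2 were called, at 0.00858, 0.0438 and 0.0499. With that term 2748 of all genes were called, against 940 in the main fit. Only 3 of 22 alternatives called FD1, 2 FDC1 and 1 FDC2, with adjusted p up to 0.592, 0.516 and 0.351. With the replicate block in the 3 groups whose numbers deviate together, FD1 and FDC1 were called, at an adjusted p of 0.0222 and 0.0464, and 2333 of all genes were called against 940. FD2 (-0.30), FD3 (0.03), FNR2 (-0.16), PGR5 (0.03) and AT5G59400 (0.18) had overlapping groups. The median over the 9 was -0.16, beside -0.01 over all genes.

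On deficient iron AT5G59400 was higher in clf than in wild type and no other of the 9 genes was called, where 6.47% of all genes tested were called, 4.01% higher and 2.46% lower. Its 1.28 to 2.11 CPM in clf lay above the 0.123 to 0.442 CPM of the wild type, with a log2 fold change of 2.55 (SE 0.36, edgeR adjusted p 0.00286), or 5.85-fold higher. FD2 was 482 to 843 CPM in clf against 382 to 480 CPM in wild type, all 3 higher, with a log2 fold change of 0.65 (SE 0.20, edgeR adjusted p 0.081). FD3 was 16.3 to 23.3 CPM against 13.4 to 15.4 CPM, also all higher, with 0.49 (SE 0.15, edgeR adjusted p 0.0902). Without replicate 3 of iron-deficient clf, which held the lowest FD2 and FD3 of its group, the adjusted p was 0.0119 for FD2 and 0.0297 for FD3. Only 4 of 21 alternatives called FD2 and 3 called FD3, with adjusted p up to 0.287 and 0.31. FNR1 (-0.31, edgeR adjusted p 0.144) and FDC2 (-0.13, 0.678) were lower in all 3 clf libraries. FD1 (0.21), FDC1 (-0.03), FNR2 (-0.27) and PGR5 (-0.04) had overlapping groups. FNR1 was called lower with the term for the libraries that stand apart (adjusted p 0.0464), and without those 4 libraries both FNR1 (-0.43, adjusted p 0.0346) and FNR2 (-0.41, adjusted p 0.0313) were. No other alternative of the 21 called FNR1 or FNR2, and the adjusted p reached 0.425 and 0.925. All genes called were 3146 with the term and 3220 without the 4 libraries, against 1239 in the main fit. The groups did not overlap for 5 of the 9, against 25% of all genes tested, and the median was -0.03, beside -0.02 over all genes. Of the 11 root markers tested 1, COBL9, was called lower in iron-deficient clf, and their median log2 fold change was -1.16. They summed to 327 to 406 CPM against 433 to 539 CPM in wild type, and without PYK10 and SCR to 2.01 to 6.85 CPM against 5.46 to 11.6 CPM, which overlapped. With the term for the libraries that stand apart 5 of the 11 were called lower, and their part in the results was not tested.

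The interaction asks whether the iron response differs between the genotypes, and 0.00522% of all genes tested, a single gene, was called. None of the 9 genes passed the edgeR test, 2 had an unadjusted p under 0.05, and DESeq2 called 1. That one was AT5G59400, whose fall was smaller in clf by a log2 difference of 2.36 (SE 0.46), with an edgeR adjusted p of 0.27, a DESeq2 adjusted p of 0.000639 and a range from 0.000639 to 0.674 over 20 alternatives. FD2 fell less in clf by a log2 difference of 0.95 (SE 0.28) at an unadjusted p of 0.00581 and an edgeR adjusted p of 0.511. The other 7 genes had differences between -0.31 and 0.46 and adjusted p-values of 0.689 or more. With the term for the libraries that stand apart, edgeR called AT5G59400 (adjusted p 0.0429), where 97 of all genes were called against 1 in the main fit. A different iron response in clf is therefore not shown for any of the 9 by the main edgeR fit. On simulated counts that fit recovered 2% of 2-fold increases and 10% of 2-fold decreases in the interaction. A missing call thus does not show an equal response.

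The other genes around photosystem I were taken from 5 lists. Of the 12 photosystem I subunits tested, 10 fell on deficient iron in wild type and none rose, with a median of -0.82. PSAF, a plastocyanin-docking subunit, went from 3614 to 658 CPM (log2 fold change -2.46, edgeR adjusted p 0.000119) and PSAD2, of the ferredoxin-docking side, from 2152 to 834 CPM (-1.37, adjusted p 8.49e-05). PSAN, on the lumen side, went from 2746 to 710 CPM (-1.95, adjusted p 0.000319). In clf 4 of the 12 fell, among them PSAD2 (-0.91, adjusted p 0.00393) and PSAF (-1.50, adjusted p 0.00782), with a median of -0.70. All 12 had a negative log2 fold change in both genotypes, and without the 4 libraries that stand apart 12 were called lower in wild type and 8 in clf. In that fit the calls over all genes also went up, from 1747 to 3230 in wild type and from 291 to 1660 in clf.

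Of 5 genes on the electron-donor side of photosystem I, 4 fell in wild type and 1 in clf. PETM, a subunit of the cytochrome b6f complex, went from 762 to 190 CPM in wild type (edgeR adjusted p 0.000707), and PETC, its Rieske iron-sulfur protein, from 1194 to 666 CPM (-0.84, adjusted p 0.00123). PETE2, a plastocyanin, went from 4406 to 3106 CPM (-0.50, adjusted p 0.0195). In clf PETC fell (-0.61, adjusted p 0.0216), and on deficient iron PETM was higher in clf than in wild type (1.09, adjusted p 0.02).

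Of 11 enzymes that draw on ferredoxin, 5 fell in wild type and none rose. FTRA2, a subunit of ferredoxin-thioredoxin reductase, went from 48.4 to 14.7 CPM (log2 fold change -1.72, edgeR adjusted p 0.00209) and SIR, sulfite reductase, from 474 to 190 CPM (-1.32, adjusted p 0.00339). HY1, a heme oxygenase, and HY2, which makes the phytochrome pigment, also fell (-0.34 and -0.41, adjusted p 0.0388 and 0.0422). In clf edgeR called 0 of 11 while 4 had an unadjusted p under 0.05 and DESeq2 called 2. GLU2, a glutamate synthase, and PAO, of chlorophyll breakdown, were higher in clf than in wild type on sufficient iron (0.81 and 0.56, edgeR adjusted p 0.00864 and 0.0331), and PAO also on deficient iron (0.69, adjusted p 0.0115).

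Of 19 cyclic flow partners and NDH subunits, 4 fell in wild type and none rose in the main fit. NDHS, which forms the ferredoxin-binding site of the NDH complex, went from 196 to 120 CPM (log2 fold change -0.71, edgeR adjusted p 0.00308) and PNSL4, of its lumenal part, from 64.5 to 39.5 CPM (-0.71, adjusted p 0.00507). With the term for the libraries that stand apart, 6 of the 19 were called lower and 2 higher in wild type. Without those 4 libraries 3 were called lower and 2 higher. These fits called 4115 and 3230 of all genes, against 1747 in the main fit. In clf edgeR called 0 of 19, with 6 at an unadjusted p under 0.05 and 5 called by DESeq2. PGRL1B, a partner of PGR5, was higher in clf than in wild type on sufficient iron (30.5 against 18.3 CPM, 0.74, edgeR adjusted p 0.00751) and on deficient iron (26.5 against 17.4 CPM, 0.61, adjusted p 0.0153).

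Of 7 other ferredoxins, FNR isoforms and FNR anchors, FD4 had 0 counts in all 12 libraries and 6 were tested. MFDX1, a mitochondrial ferredoxin, rose on deficient iron in wild type from 3.19 to 6.81 CPM (1.09, edgeR adjusted p 0.0245). TIC62, which anchors FNR, fell in wild type from 196 to 122 CPM (-0.68, adjusted p 0.00614) and in clf from 143 to 88.3 CPM (-0.70, adjusted p 0.0173). FNR1 and FNR2 themselves did not pass the test in either genotype. On deficient iron TIC62 was lower in clf than in wild type (-0.47, adjusted p 0.0412).

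**Figure D4:**
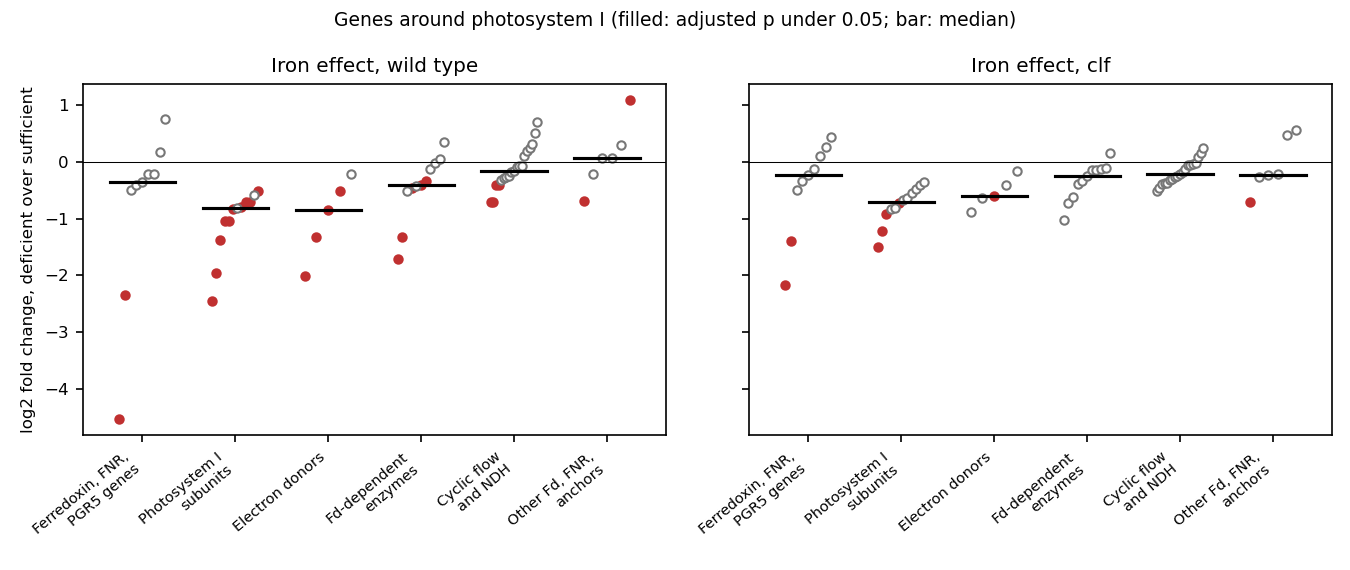
Log2 fold changes of deficient over sufficient iron (y axis) in wild type (left) and clf (right) for the 9 genes and the 5 lists of genes around photosystem I (x axis), 1 point per gene, filled at an edgeR adjusted p under 0.05, with a bar at each median. The photosystem I subunits all lie below 0, with medians of -0.82 and -0.70, and most of the cyclic flow and NDH genes lie near 0.

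The genes whose log2 CPM ran most like that of a member over the 12 libraries are given as a description. The 12 libraries fall into the 4 groups and share depth and the libraries that stand apart. Nearest to FD2 was FER4, a ferritin (Pearson r 0.993), then HEMA1, of the first step of chlorophyll and heme synthesis (0.988), AT3G43670, AT3G61870 and PSAN. Nearest to AT5G59400 was NYC1, a chlorophyll b reductase (0.994), then SAPX, a stromal ascorbate peroxidase (0.991), FSD1, an iron superoxide dismutase (0.990), NEET and UKL3. Nearest to FD1 was SPA4 (0.979), followed by AT2G31790, AT5G01260, AT1G65870 and BBX18. Nearest to PGR5 was AT3G23325 (0.945), followed by AT1G34010, BEE2, AT1G21560 and AT5G08010. Among the 9 genes FD2 and AT5G59400 had r = 0.946, FD1 and FD2 -0.58, FD1 and FNR1 -0.80, and PGR5 and FNR2 -0.81.

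The libraries that stand apart set part of the spread within groups. FD1 and PGR5 had the lowest value of the group in that library in 4 of 4 groups, and FNR2 and FDC2 the highest in 4 of 4. FNR2 was at 330 to 507 CPM in those 4 libraries and at 189 to 279 CPM in the other 8, while its 4 group means ran from 248 to 347 CPM. FD2 had its highest value of the group in that library in 1 group and its lowest in 2, and AT5G59400 in 1 and 3.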

How the data were processed

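Libraries were made with a TruSeq stranded mRNA kit, per the labels' protocols, and the submitters' processing notes name TopHat2 and TAIR10, with no version of the aligner. Nothing in the sources used here names the counting tool, the annotation version or the strand setting. The deposited counts hold integers for each gene in each library, not normalized by the authors. The deposited FPKM were found to be those counts divided by gene length and library total, since for 12911 genes with over 50 counts everywhere the ratio followed the library total within a relative 1e-09.

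Genes were filtered with filterByExpr (minimum count 10, minimum total 15), scaled with TMM factors and fitted with glmQLFit in edgeR 4.0.16 (R 4.3.3) on all 12 libraries in 4 groups, with 8 residual degrees of freedom and a common biological coefficient of variation of 0.308. Comparisons used glmQLFTest, the quasi-likelihood F test, with Benjamini-Hochberg adjustment over 19148 genes and calls at an adjusted p under 0.05, so an edgeR adjusted p refers to this test. Log2 fold changes and SE come from the same fit. Shares of FPKM were tested by exact permutation. Alternatives were DESeq2 1.42.0, RLE factors, no filter, limma 3.58.1 on log2(FPKM + 1) and log2(FPKM + 0.1), a replicate block, fits with a term for or without the 4 libraries that stand apart, a fit of the 2 groups compared, and each library left out in turn. Counts per list under DESeq2 and with or without the 4 libraries were added after seeing the data.

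On simulated counts for 19148 genes, the iron effect in wild type recovered 78% of 4-fold increases and 62% of 4-fold decreases, and 26% of 2-fold changes in each direction; the interaction recovered 60% and 48% at 4-fold and 2% and 10% at 2-fold. The depth was 16092041 to 29400813 counts per library, and how recovery depends on the count of a gene was not tested.

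The groups come from titles and genotype and treatment labels. The labels do not say what the replicate numbers in the titles share. Deviations of same-numbered libraries from their group means correlated at 0.176 to 0.641 in all 9 pairs among iron-sufficient wild type and the 2 clf groups, over the 0.1 taken as pairing, and at -0.628 to 0.326 in the 9 pairs with iron-deficient wild type, 6 of them negative. Replicate 3 is the library that stands apart in each of the 3 groups that correlate. Deviations within a group cancel out, so that library can also set the correlations of the other numbers. Pairing of the numbers beyond that library is therefore not shown. A fit of those 3 groups with the number as a block was added after seeing the data. Within groups the chi-square per gene between libraries was 5.65 to 106, so no library was a copy of another. The members, the lists and the libraries that stand apart were chosen with earlier results of these data known. All 9 members were described in every comparison, and in each list naming was limited to the 4 genes of lowest adjusted p in a comparison; COBL9 was named after its value was seen. Coordinates and sequences are RefSeq TAIR10.1, in which all 98 listed identifiers were found. Protein sequences were not used here.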

Additional observations from a re-analysis of the deposited data

How the results depend on the processing

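FD2 and AT5G59400 on deficient iron in wild type, and AT5G59400 in clf against wild type on deficient iron, passed the test under all 21 alternatives. In clf, FD2 lost its call only in the fit of the 2 groups compared (adjusted p 0.0547) and AT5G59400 only without replicate 2 of clf on deficient iron (0.0501). FD1 on deficient iron in wild type was called in 7 of 21 alternatives, with adjusted p from 0.000586 to 0.17. The cause of these changes was not tested. The count of the 9 genes called on deficient iron in wild type was 2 and became 6 under DESeq2, 4 with the replicate block, 6 with a term for the 4 libraries that stand apart and 4 without them, and 2 to 4 with each library left out (4 without replicate 3 of clf on deficient iron). In clf it was 2, with 1 in the fit of the 2 groups, 4 with the term, 4 without the 4 libraries and 1 to 3 with each left out (1 without replicate 2 of clf on deficient iron). For clf on sufficient iron it was 0, with 3 under the term, 1 without the 4 libraries and 0 with each left out. For clf on deficient iron it was 1, with 2 under DESeq2, 4 with the term, 5 without the 4 libraries and 1 to 3 with each left out (3 without replicate 3 of clf on deficient iron). For the interaction it was 0, with 1 under DESeq2, 1 with the term and 0 with each left out. The numbers deviate together in 3 groups but not with iron-deficient wild type. The replicate block over all 12 libraries added FD1 and FDC2 in wild type (adjusted p 0.0368 and 0.0428). In that design the FD2 share had an exact p of 0.03125, the smallest p it allows. The replicate block in the 3 groups whose numbers deviate together, chosen after seeing the data, called 3 of the 9 genes in the iron effect in clf and 2 in clf on sufficient iron, and changed no other call of the 9 in these 2 comparisons than the FNR1, FD1 and FDC1 calls of the report.

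All genes called in the 5 comparisons, in the order of the report (1747, 291, 940, 1239 and 1), became 2592, 924, 1617, 1982 and 94 under DESeq2, 4115, 1741, 2748, 3146 and 97 with the term, and 3230, 1660, 1958, 3220 and 97 without the 4 libraries. With the replicate block in those 3 groups the iron effect in clf gave 1356 calls and clf on sufficient iron 2333. All-gene calls were 670, 113, 550 and 619 in fits of the 2 groups compared. With each library left out they ranged from 848 to 1928, 90 to 453, 386 to 1016, 504 to 1556 and 1 to 3. On FPKM with limma, wild type gave 3007 and 3009 and clf 586 and 503 calls on deficient iron (pseudocount 1 and 0.1). On that scale, without TMM, the median of all genes rose by 0.188 and 0.242 in wild type, and 84.9% of its calls were higher against 50.5% in edgeR.

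The mean change of the FD2 share was -38.7 to -36.8 points with each library left out, at an exact permutation p of 0.005. Without the 4 libraries it was -36.1 points, at an exact permutation p of 0.0556. Each of these p-values is the smallest its design allows. The change of the FNR2 share ranged from 1.54 to 4.83 points with each left out. Without the 4 libraries it was 3.59 points, also at an exact permutation p of 0.0556. Changes of sign were confined to genes that were not called. Without the 4 libraries they were FNR2 in the iron effect in wild type (0.040), FNR2 (0.014) and PGR5 (-0.041) in clf on sufficient iron, FDC1 (0.036) and PGR5 (0.016) in clf on deficient iron, and PGR5 in the interaction (0.056). On FPKM with either pseudocount they were FD3 (0.040 and 0.042) and FNR2 (0.088 and 0.089) in the iron effect in wild type, FDC1 in that in clf (0.040), FNR2 in clf on sufficient iron (0.019), and FDC1 (0.024) and PGR5 (0.015) in clf on deficient iron. With each library left out, signs changed for FNR2 in the iron effect in wild type (-0.391 to 0.168), for FD3 (-0.077 to 0.136), FNR2 (-0.364 to 0.218) and PGR5 (-0.126 to 0.129) in clf on sufficient iron, for FDC1 (-0.093 to 0.048) and PGR5 (-0.140 to 0.085) in clf on deficient iron, and for FNR2 (-0.493 to 0.090) and PGR5 (-0.174 to 0.087) in the interaction.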
